A study of Mus musculus with 6 samples.

Results

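Histone genes were followed in MC3T3-E1, a pre-osteoblast cell line derived from C57BL/6 mouse calvaria. Confluent cultures received 1 µM NU7441, which inhibits DNA-PK (the DNA-dependent protein kinase), in 3 samples and the solvent DMSO in the other 3, for 16 h. The design text describes 3 independent experiments whose triplicates were pooled before RNA-seq. The labels do not tie a sample to an experiment, so p-values reflect only how far these samples spread, and that spread may be technical. The members were all rows whose symbol starts with Hist1h, Hist2h, Hist3h or Hist4h, here called replication-dependent, together with 9 genes of other histones (H1f0, H2afx, H2afz, H2afv, H2afy, H2afy2, H2afj, H3f3a and H3f3b), here called variants. The rows called replication-dependent also include the pseudogene Hist3h2bb-ps and testis histones. The member rule used no measured value and found 77 of the 23358 gene rows, 68 of them replication-dependent and 9 variant.

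Histones are the proteins around which DNA is wound, H2A, H2B, H3 and H4 in the core of the nucleosome and H1 on the DNA between cores. Replication-dependent histone genes lie in clusters, mostly lack introns, and are expressed mainly in S phase. Their mRNAs normally end not in a poly(A) tail but in a short stem-loop, which the protein SLBP binds. Variant histone genes are scattered, mostly give polyadenylated mRNAs and are mostly expressed through the cell cycle, and they serve repair, transcription and centromeres. Of the variants here, the annotated transcript of H2afx holds the histone stem-loop as well (sequence below). Some replication-dependent genes are also known to give polyadenylated mRNAs, which matters here because the libraries were made with an mRNA kit.

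Of the 77 members, 26 had enough counts to be tested, 17 of 68 replication-dependent genes and all 9 variants. In NU7441 the H2A variants H2afz and H2afx fell to 0.558 and 0.582 times their DMSO levels (fitted folds), while the H1 variant H1f0 and the replication-dependent genes Hist1h1c, Hist1h2bc and Hist3h2a rose. The replication-dependent genes Hist2h2bb, Hist1h1b, Hist1h1e and Hist1h4i fell, at low counts. In edgeR's quasi-likelihood test with Benjamini-Hochberg adjustment over all genes at 0.05, 11 of the 26 tested members (42.3%) passed, against 30.7% of the 13784 genes tested. Of the members 4 were higher, where 14.1% of all genes were, and 7 lower, where 16.6% were. Those shares of all genes were taken with TMM scaling, under which 45.9% of calls were higher; with upper-quartile scaling it was 56.5%. The median log2 fold change was -0.06 over the 26 members and 0.01 over all tested genes. The number lower was 10 without NU7441 replicate 1 and 4 without DMSO replicate 1. The groups did not overlap in CPM for 13 members (4 above, 9 below), and for 42.8% of all genes (20.6% above, 22.2% below).

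The libraries held between 52150994 and 55021692 gene counts in NU7441 and between 47312968 and 71292628 in DMSO. Every deposited count is even, so a read pair appears to count as 2. The labelled cell type was checked against its markers: 8 osteoblast-lineage markers summed to between 42900 and 44000 counts scaled to a library of 1e+06 (CPM) in NU7441 and between 41700 and 43900 in DMSO, nearly all of it Col1a1 (18600 CPM in NU7441 and in DMSO) and Col1a2 (23100 CPM in NU7441 and 22300 CPM in DMSO). Of the other markers Ibsp (-0.89 ± 0.15 in log2, edgeR adjusted p = 0.00041) and Alpl (-0.29 ± 0.07, edgeR adjusted p = 0.006) fell, Spp1 rose (0.25 ± 0.03, edgeR adjusted p = 5.2e-06), Runx2 and Sp7 did not pass, and Bglap was at 0.253 CPM or less in every sample. The leukocyte genes Ptprc and Cd3e were at 0 counts in every sample. Of the other 3-gene marker lists, leukocyte, endothelial, epithelial, adipocyte and muscle genes summed to at most 1.95 CPM in NU7441 and 1.98 CPM in DMSO. Chondrocyte genes summed to between 86.9 and 91 CPM in NU7441 and between 79.8 and 81.9 CPM in DMSO, with Acan at 0, and their part in the histone results was not tested. Genes of the S phase replication machinery were lower in NU7441: of 35 tested, 34 fell (97.1%) and 1 rose, Gins4, with a median log2 fold change of -0.85. Among all tested genes 16.6% fell and 14.1% rose. In bulk samples fewer cells in S phase and less RNA per cell cannot be told apart.

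The variants made up nearly all histone reads. They took from 96.5% to 97% of the members' counts in NU7441 samples and from 97.3% to 97.5% in DMSO samples. Levels are compared between genes as deposited RPKM, reads per kilobase of gene length and library size, as mean ± SD over 3 samples per group. H3f3b, one of a pair of genes for the H3 variant that is placed in chromatin outside replication, was the highest at 187 ± 14.2 RPKM in NU7441 and 185 ± 7.59 RPKM in DMSO. H1f0, the linker histone of resting and differentiated cells, stood at 123 ± 9.73 RPKM in NU7441 and 110 ± 5.96 RPKM in DMSO. H2afz, a gene of the H2A variant H2A.Z, stood at 86.4 ± 5.15 RPKM in NU7441 and 158 ± 6.47 RPKM in DMSO, so that it ranked below H1f0 in NU7441 and above it in DMSO. H3f3a, the other gene of that H3 variant, followed with 77.9 ± 6.1 RPKM in NU7441 and 82.9 ± 2.33 RPKM in DMSO, and in NU7441 it differed from H2afz by less than the summed SDs. The next variants lay well below: H2afy, H2afv, H2afj and H2afx had group means from 8.31 to 18.3 RPKM, and H2afy2 had 0.152 ± 0.0513 RPKM in NU7441 and 0.101 ± 0.0538 RPKM in DMSO. The highest replication-dependent gene, Hist1h1c, had 6.92 ± 0.517 RPKM in NU7441 and 4.55 ± 0.568 RPKM in DMSO. Hist1h2bc and Hist3h2a came after it, and every other tested replication-dependent gene had group means under the 1.87 RPKM of Hist1h2bc in DMSO.

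**Figure D1:**
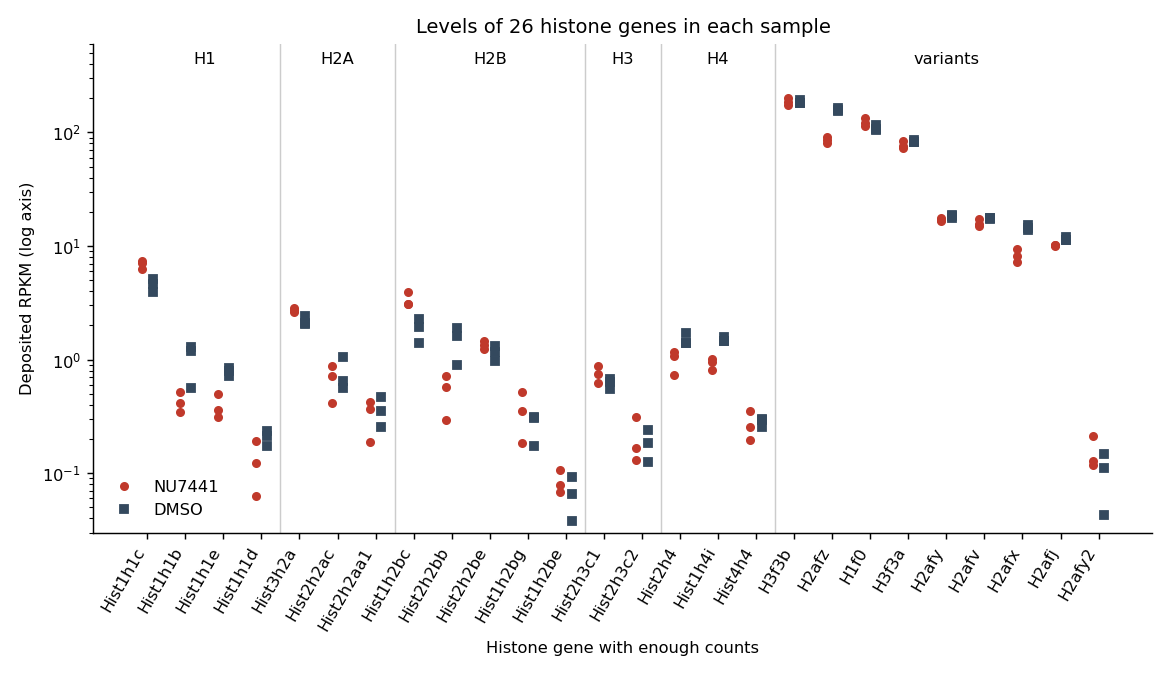
Deposited RPKM on a log axis for the 26 histone genes with enough counts, by class, with one point per sample (NU7441 circles left, DMSO squares right). H3f3b, at 187 RPKM in NU7441 and 185 RPKM in DMSO, is at the top, the replication-dependent genes lie at or below 7.31 RPKM, the highest NU7441 sample of Hist1h1c, and H2afz and H2afx show groups that do not overlap.

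Of the 6 H2A variants, H2afz, H2afx and H2afj fell, and H2afv, H2afy and H2afy2 did not pass. H2A.Z, which H2afz and H2afv encode in nearly identical form, sits at promoters and replaces H2A outside replication. H2afz (mm10 chromosome 3, 137864599 to 137866922, plus strand, 5 exons in GENCODE M21) had 116, 112 and 106 CPM in the NU7441 samples, against 209, 199 and 192 CPM in the DMSO samples. The groups were far apart, for a log2 fold change of NU7441 over DMSO of -0.84 ± 0.04 (± SE here and below; edgeR adjusted p = 6.7e-10). H2afv had 37.4, 33.4 and 34.8 CPM in NU7441, against 38.2, 38.9 and 37.1 CPM in DMSO, overlapping, at -0.11 ± 0.04 on the log2 scale (edgeR adjusted p = 0.065). That value passed the threshold without NU7441 replicate 1, at -0.16 (adjusted p = 0.00933), and with scaling by library size only (edgeR adjusted p = 0.0448). The log2 ratio of H2afz to H2afv counts was 1.64, 1.75 and 1.60 in NU7441, against 2.45, 2.36 and 2.37 in DMSO, a difference of -0.73 with groups that did not overlap (exact permutation test, two-sided p = 0.1, the smallest that 3 against 3 samples allow). Across the 7 such ratios computed every p was 0.1, and so was each adjusted p. The fall was thus larger for H2afz than for its paralogue in all 3 NU7441 samples. Of the 50-base stretches in the longest H2afz transcript, 69.6% also occur in GENCODE transcripts of other genes, chiefly Tmcc1, and 0% of those of H2afv do, so reads of H2afz could be split or lost in counting.

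The 250 bases before the transcript start of H2afz and of H2afv, the genes of H2A.Z, are shown from RefSeq (GRCm38.p6). Its H2afz start lies 112 bases from that of the deposited gene. Capitals mark CCAAT and TTTGAA on either strand. The windows are chr3:137864237-137864486 on the plus strand for H2afz and chr11:6444444-6444693 on the minus strand for H2afv. H2afz holds 2 CCAAT boxes, the site of the factor NF-Y, and H2afv holds 4 and 1 TTTGAA. On either strand, CCAAT is found in 33.8% of all RefSeq windows of this length and TTTGAA in 16%.
H2afz: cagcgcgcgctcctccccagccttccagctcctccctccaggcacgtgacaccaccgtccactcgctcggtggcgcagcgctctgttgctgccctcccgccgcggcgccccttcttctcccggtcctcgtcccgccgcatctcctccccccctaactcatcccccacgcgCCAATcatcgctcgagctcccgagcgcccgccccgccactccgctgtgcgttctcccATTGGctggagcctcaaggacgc
H2afv: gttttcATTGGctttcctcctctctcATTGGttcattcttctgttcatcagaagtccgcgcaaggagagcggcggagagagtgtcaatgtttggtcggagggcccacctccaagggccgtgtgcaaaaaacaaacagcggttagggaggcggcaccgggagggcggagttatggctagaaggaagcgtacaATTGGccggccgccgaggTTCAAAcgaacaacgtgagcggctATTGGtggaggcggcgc

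H2afx encodes the H2A variant that DNA-PK and related kinases phosphorylate around DNA breaks. It had 17.1, 15.2 and 13.3 CPM in NU7441, against 27.3, 25.2 and 25.9 CPM in DMSO. Each NU7441 sample lay below each DMSO sample, and the fold change was -0.78 ± 0.07 in log2 (edgeR adjusted p = 1e-06). The call held with every library left out in turn (-0.87 to -0.69). H2afj, a further H2A variant, had 24.5, 25 and 25.3 CPM in NU7441, against 27.1, 27.5 and 28.9 CPM in DMSO. Its groups did not overlap either, but the change was small at -0.16 ± 0.04 (edgeR adjusted p = 0.0089), and leaving out DMSO replicate 3 ended the call (edgeR adjusted p = 0.064). The log2 ratio of H2afx to H2afj was -0.72 ± 0.21 in NU7441 and -0.09 ± 0.09 in DMSO (SD, n = 3 each; exact permutation test, two-sided p = 0.1). H2afy, for macroH2A, a variant of silent chromatin, had 47.3 ± 0.737 CPM in NU7441 and 49.6 ± 1.06 CPM in DMSO and did not pass (log2 fold change -0.07 ± 0.03, edgeR adjusted p = 0.15). H2afy2, for the second macroH2A, had from 16 to 28 counts in NU7441 and from 6 to 20 in DMSO, with overlapping groups (edgeR adjusted p = 0.31), and it shares positions with Aifm2.

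The genes of the replication-independent H3 variant did not pass. H3f3b had 533, 471 and 502 CPM in NU7441, against 511, 481 and 473 CPM in DMSO, overlapping, at 0.04 ± 0.04 in log2 (edgeR adjusted p = 0.54). H3f3a had 121, 107 and 111 CPM in NU7441, against 122, 117 and 115 CPM in DMSO, at a log2 difference of -0.06 ± 0.04 (edgeR adjusted p = 0.31). Without NU7441 replicate 1 the log2 fold change of H3f3a was -0.11 and passed (edgeR adjusted p = 0.0281). That library had the highest CPM of its group for H3f3a, H3f3b, H2afv, H2afx, H2afy, H2afy2, H2afz and H1f0, and the lowest for H2afj. Cenpa, the centromeric H3 variant, lies outside the member rule; it had 11.7 ± 2.57 CPM in NU7441 and 28.2 ± 2.21 CPM in DMSO (log2 fold change -1.27 ± 0.11, edgeR adjusted p = 4.1e-07).

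Linker histone genes went in both directions. H1f0 (mm10 chromosome 15, 79028212 to 79030500, plus strand, 1 exon) had 405, 357 and 378 CPM in NU7441, against 352, 322 and 322 CPM in DMSO. The lowest NU7441 sample was just above the highest DMSO sample, and the log2 fold change was 0.19 ± 0.05 (edgeR adjusted p = 0.0049). Hist1h1c had 14.7, 15.5 and 13.4 CPM in NU7441, against 10.5, 8.21 and 9.47 CPM in DMSO, clear of each other, at a log2 difference of 0.63 ± 0.09 (edgeR adjusted p = 5.1e-05). Hist1h1e had 42, 52 and 68 counts in NU7441, against 120, 88 and 144 counts in DMSO, which is 1.02 ± 0.256 CPM in NU7441 and 2.01 ± 0.153 CPM in DMSO. Here every NU7441 sample was below every DMSO sample (log2 fold change -0.98 ± 0.20, edgeR adjusted p = 0.002). Hist1h1e shares positions with Hist1h2be, whose log2 fold change was 0.36 ± 0.41, and both lie on the minus strand; 23.8% of the 50-base stretches of Hist1h1e also occur in Hist1h2be transcripts, so reads of their common stretch cannot be told apart. Hist1h1b had 16, 26 and 20 counts in NU7441, against 64, 24 and 76 counts in DMSO. In CPM its groups did not overlap, at 0.478 CPM in the highest NU7441 sample and 0.505 CPM in DMSO replicate 2. The log2 fold change of -1.24 ± 0.34 (edgeR adjusted p = 0.012) lost its call without DMSO replicate 1 (adjusted p = 0.063) and without DMSO replicate 3 (adjusted p = 0.0629). Hist1h1d had 14 to 40 counts in NU7441 and 38 to 60 counts in DMSO (log2 fold change -0.69 ± 0.34, edgeR adjusted p = 0.14), and passed only without NU7441 replicate 1 (adjusted p = 0.0303). H1fx, an H1 gene outside the member rule, averaged 14.7 CPM in NU7441 and 15.5 CPM in DMSO (-0.08 ± 0.07, edgeR adjusted p = 0.43).

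The promoters of Hist1h1c, which rose, and of Hist1h1e, which fell, share known elements of H1 genes, and are shown as the 250 bases before the start in RefSeq (GRCm38.p6), for Hist1h1c chr13:23738557-23738806 on the plus strand and for Hist1h1e chr13:23622559-23622808 on the minus strand. Capitals mark AAACACA (the H1 box) and CCAAT on either strand and TATAAA on the gene's strand.
Hist1h1c: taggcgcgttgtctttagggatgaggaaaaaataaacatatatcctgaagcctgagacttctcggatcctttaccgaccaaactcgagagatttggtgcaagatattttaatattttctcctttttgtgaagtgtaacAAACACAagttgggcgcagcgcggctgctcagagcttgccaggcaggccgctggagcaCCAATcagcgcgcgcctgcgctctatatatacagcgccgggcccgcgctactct
Hist1h1e: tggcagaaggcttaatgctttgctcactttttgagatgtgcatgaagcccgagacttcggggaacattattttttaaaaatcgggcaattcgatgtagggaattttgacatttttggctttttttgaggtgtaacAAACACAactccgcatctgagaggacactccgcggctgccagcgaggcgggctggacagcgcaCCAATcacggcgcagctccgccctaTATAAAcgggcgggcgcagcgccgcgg
Both hold 1 AAACACA and 1 CCAAT, and Hist1h1e also holds 1 TATAAA. Only exact strings were counted, so the similar stretch tatatata after CCAAT in Hist1h1c was not. The H1 box was found in 5 of the 6 replication-dependent H1 promoters and in 6.25% of all RefSeq windows of that length. Over the 61 replication-dependent members matched to RefSeq, 50 held CCAAT (33.8% of all windows) and 24 held TATAAA (7.59% of all windows). Some of these windows lay far from the deposited start, at 5781 bases for Hist2h2aa1 and 5599 for Hist2h2aa2. For Hist1h2bq and Hist1h2br it was 27331 bases each, and their windows were identical in sequence. The octamer ATTTGCAT on either strand, the site of the OCT factors in H2B promoters, was found in 6 of 16 H2B promoters and 7 of 17 H2A promoters, which often face an H2B gene, and in 1.6% of all windows. The E2F-type sites TTTCCCGC or TTTGGCGC were found in 1 of the 61, against 1.3% of all windows.

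**Figure D2:**
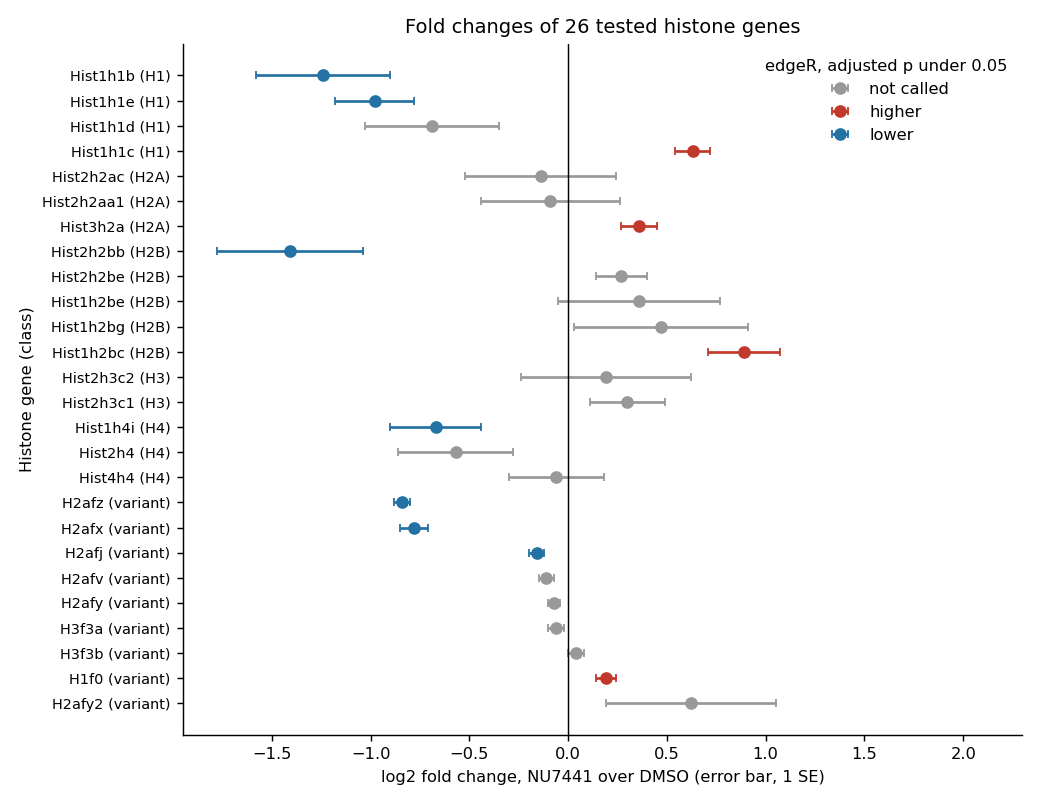
Log2 fold change of NU7441 over DMSO for the 26 tested histone genes with error bars of 1 SE, grouped by class, with colours for the edgeR call. H2afz and H2afx (-0.84 and -0.78) have narrow bars, and the H1 genes Hist1h1c (0.63) and Hist1h1e (-0.98) lie on opposite sides of 0.

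Core replication-dependent genes were likewise split. Of the H2B genes, Hist1h2bc had 156, 214 and 160 counts in NU7441, against 74, 104 and 134 counts in DMSO. All NU7441 samples were above all DMSO samples, at 3.32 ± 0.528 CPM in NU7441 and 1.8 ± 0.434 CPM in DMSO (log2 fold change 0.89 ± 0.18, edgeR adjusted p = 0.0018). Hist2h2bb had 10, 26 and 20 counts in NU7441, against 68, 50 and 42 counts in DMSO, and moved the other way without overlap. Its log2 fold change was -1.41 ± 0.37 (edgeR adjusted p = 0.0088), and leaving out DMSO replicate 1 ended the call (-1.18, adjusted p = 0.052). All its 50-base stretches (100%) also lie in transcripts of another GENCODE gene, Gm20628. Hist2h2be had 228, 284 and 250 counts in NU7441, against 188, 216 and 288 counts in DMSO; its groups overlapped in CPM (log2 fold change 0.27 ± 0.13, edgeR adjusted p = 0.13). The log2 ratio of Hist2h2be to Hist2h2bb was 3.87 ± 0.57 in NU7441 and 2.12 ± 0.66 in DMSO (SD, n = 3 each), without overlap between the groups (exact permutation test, two-sided p = 0.1). Hist1h2be and Hist1h2bg had at most 22 counts in any sample and did not pass.

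Among H2A genes, Hist3h2a had 7.22, 7.72 and 7.09 CPM in NU7441, against 5.4, 6.36 and 5.52 CPM in DMSO. The groups did not overlap, and the log2 fold change was 0.36 ± 0.09 (edgeR adjusted p = 0.01). GENCODE transcripts of Trim17 hold 31.5% of its 50-base stretches. Hist2h2aa1 and Hist2h2ac had 12 to 34 counts in every sample and overlapping groups. Neither tested H3 gene passed: Hist2h3c1 differed by 0.30 ± 0.19 in log2 (edgeR adjusted p = 0.26) and Hist2h3c2 of 0.19 ± 0.43 (edgeR adjusted p = 0.79). The 3 tested H4 genes had fitted values below 0. Hist1h4i had 38, 32 and 36 counts in NU7441, against 62, 50 and 74 counts in DMSO, without overlap in CPM (log2 fold change -0.67 ± 0.23, edgeR adjusted p = 0.041). That call was lost with any 1 library left out other than NU7441 replicate 1 (adjusted p from 0.0718 to 0.101) and with DESeq2 (adjusted p = 0.061). Hist2h4 did not overlap between groups but did not pass (-0.57 ± 0.29, edgeR adjusted p = 0.16), and Hist4h4 had -0.06 ± 0.24 (edgeR adjusted p = 0.89).

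**Figure D3:**
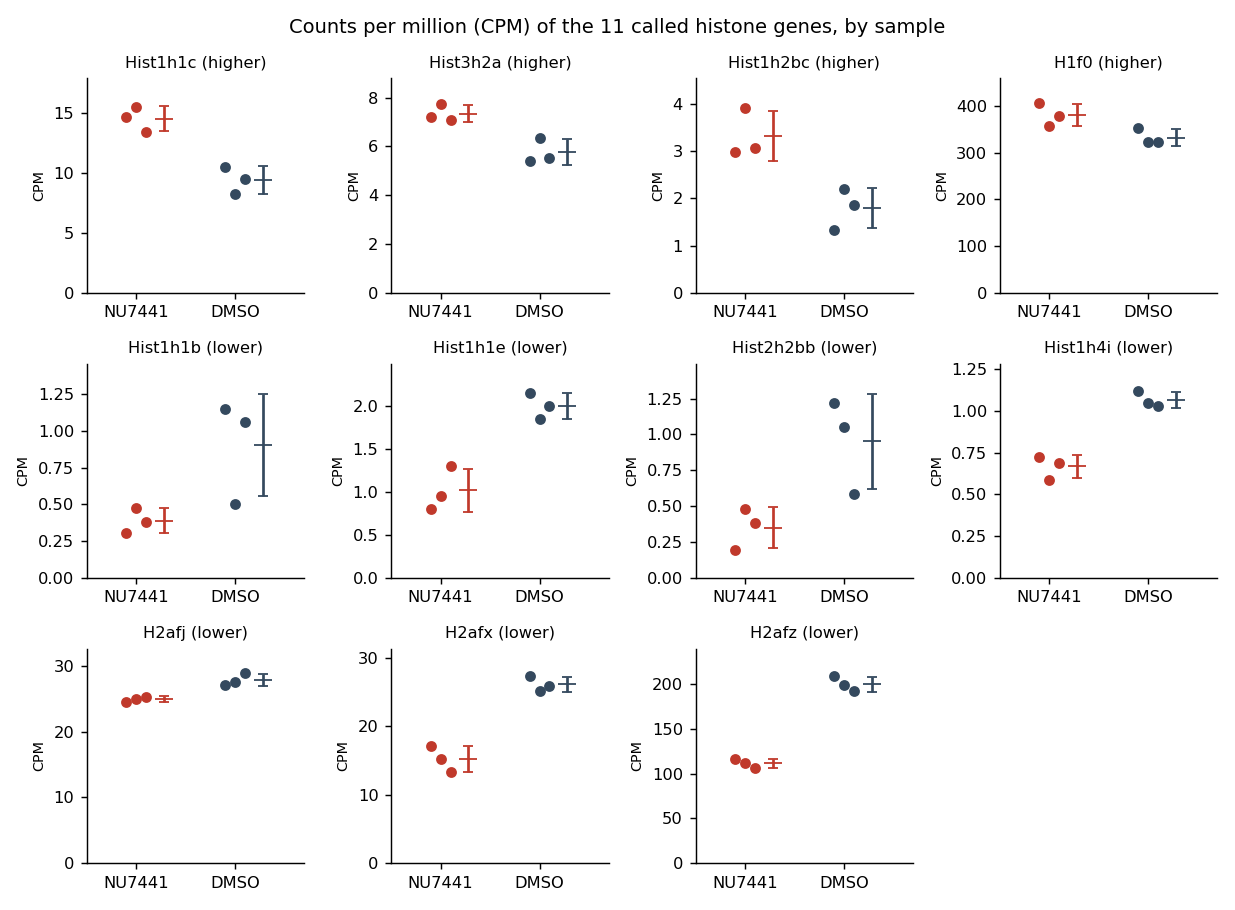
CPM in each sample for the 11 histone genes that passed the test, NU7441 left and DMSO right, with mean and SD beside the points and axes that start at 0. The first row holds the 4 genes that were higher, where H1f0 runs from 357 to 405 CPM in NU7441 and from 322 to 352 CPM in DMSO; the other rows hold the 7 that were lower.

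The 3' ends of the replication-dependent mRNAs bear on which of them an mRNA library can hold. The consensus histone stem-loop of 16 bases was searched on the sense strand of GENCODE M21 transcripts and found in 46 of the 68 replication-dependent members, in 1 of the 9 variants, H2afx, and in 0.319% of protein-coding genes overall; transcripts annotated without their 3' end cannot show it. The sites of members with a called change are shown with the stem-loop in capitals and 5 flanking bases on each side, at mm10 chr13:23739507-23739532 (plus strand) for Hist1h1c, chr11:58955167-58955192 (plus strand) for Hist3h2a, chr13:23621777-23621802 (minus strand) for Hist1h1e, chr13:22040961-22040986 (minus strand) for Hist1h4i and chr9:44335235-44335260 (plus strand) for H2afx.
Hist1h1c: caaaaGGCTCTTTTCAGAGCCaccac
Hist3h2a: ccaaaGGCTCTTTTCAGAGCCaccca
Hist1h1e: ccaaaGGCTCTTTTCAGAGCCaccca
Hist1h4i: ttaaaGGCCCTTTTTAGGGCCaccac
H2afx: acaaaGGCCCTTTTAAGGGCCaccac
The stem-loops of Hist1h1c, Hist3h2a and Hist1h1e were the same 16 bases, in genes that rose and in one that fell. In every one of these 5 the annotated transcript ran on past the stem-loop, by 840 bases in Hist1h1c, 1643 in Hist3h2a, 1153 in Hist1h1e, 330 in Hist1h4i and 822 in H2afx. Over replication-dependent members with a stem-loop, 11 of the 13 tested ones and 12 of the 33 with too few counts had an annotated transcript reaching over 100 bases beyond it. The median longest transcript was 1560 bases for the 17 tested replication-dependent genes and 485 bases for the 51 with too few counts. Counts also depend on transcript length, and the filter acts on counts. Length and 3' end therefore cannot be told apart in this contrast. The poly(A) signal AATAAA stood in the last 50 bases of the longest transcript of 6 of 17 tested replication-dependent genes, 6 of 51 with too few counts and 5 of 9 variants, against 56.4% of protein-coding genes. It was present in Hist1h1c and Hist3h2a and absent from that window in Hist1h2bc, whose 2-exon transcript held no stem-loop, and in the 4 replication-dependent genes that fell. Hist2h2be, Hist2h3c1, Hist2h4 and Hist4h4, which did not pass, held it too. Among variants with a call, H1f0 (higher) and H2afj (lower) held it, and H2afz and H2afx (both lower) did not. Transcripts annotated without their 3' end cannot show AATAAA either. Of the replication-dependent genes that fell, Hist2h2bb (381 bases) and Hist1h1b (743 bases) had no stem-loop in their transcripts, so their absence of AATAAA is uncertain.

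Most replication-dependent genes gave almost no reads. The 51 untested members had at most 26 counts in any sample, and 8 were at 0 in every sample: Hist1h2aa, Hist1h2ba, Hist1h2ao, Hist1h2ap, Hist1h2bq, Hist1h2br, Hist2h2aa2 and Hist3h2ba. Hist1h2aa and Hist1h2ba are known as testis histones, as is Hist1h1t, which had 2 counts in a single DMSO sample. Hist1h2ao, Hist1h2ap, Hist1h2bq, Hist1h2br and Hist2h2aa2 share their positions with another histone row. A count of 0 allows up to 3 read pairs, or 6 deposited counts, which is 0.11 to 0.12 CPM in the NU7441 libraries and 0.084 to 0.13 CPM in the DMSO libraries, for counting error only. The 50-base stretches of each longest transcript were searched on both strands of other genes' transcripts. A median of 59.4% occurred there for untested replication-dependent genes, 30.6% for tested ones and 8.4% for variants, so reads of shared stretches may be uncertain in assignment. The other genes include some absent from the deposited rows, such as Gm20628 for Hist2h2bb, so these shares do not measure near-identical copies alone. The untested members summed to 94, 92 and 102 counts in NU7441, against 154, 152 and 196 counts in DMSO, or 1.81 ± 0.131 CPM in NU7441 and 2.9 ± 0.261 CPM in DMSO, with no overlap. For single genes 5 were lower in every NU7441 sample than in every DMSO sample (Hist1h2af, Hist1h2bb, Hist1h2bh, Hist1h2bj and Hist1h2bm), 1 was higher (Hist1h2ac) and 45 overlapped or were equal. Of all tested genes, which have higher counts, 22.2% lay below and 20.6% above in this way. Without the low-count filter 0 of the 51 passed at an adjusted p of 0.05 in edgeR, where 23.6% of 17829 genes did, and 4 had an unadjusted p under 0.05.

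The sum over all 68 replication-dependent genes was 39.7, 42 and 37.8 CPM in NU7441, against 34.5, 35.1 and 33.7 CPM in DMSO. The groups did not overlap (39.8 ± 2.1 CPM in NU7441 and 34.4 ± 0.702 CPM in DMSO). Without Hist1h1c, a choice made after its value was seen, the sum was 25.2 ± 1.04 CPM in NU7441 and 25.1 ± 1.59 CPM in DMSO, with overlapping groups. The 9 variants summed to 1230 ± 65.6 CPM in NU7441 and 1280 ± 52.9 CPM in DMSO, also overlapping. RNAs without poly(A) tails were measured beside these sums. Rn45s, the ribosomal RNA precursor, took 12.8% ± 0.5 of counts in NU7441 and 13.3% ± 0.5 in DMSO (SD, n = 3 each; exact permutation test, two-sided p = 0.3). The other 125 listed rows, mostly small nucleolar RNAs of which 109 had a count, took 0.00669%, 0.00712% and 0.00728% in NU7441, against 0.00808%, 0.00849% and 0.00801% in DMSO (exact permutation test, two-sided p = 0.1). Their summed share was thus lower in every NU7441 sample, as was the sum of the untested histone genes, though most of those genes overlapped singly. The part of these RNAs in the histone result was not tested.

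**Figure D4:**
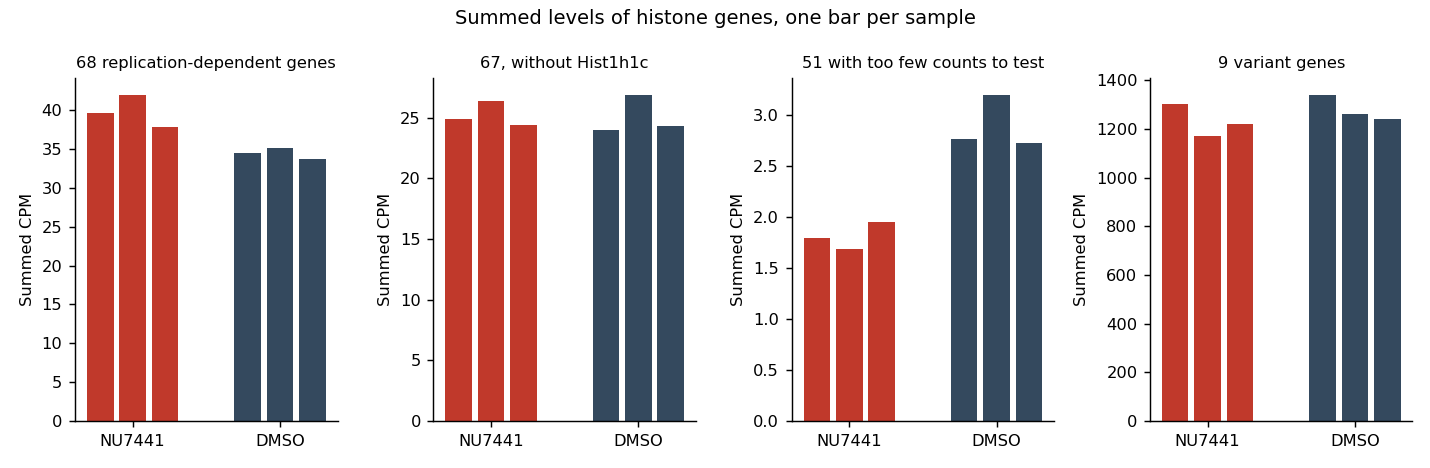
Summed CPM of histone genes with one bar per sample, NU7441 left and DMSO right, for all 68 replication-dependent genes, the 67 without Hist1h1c, the 51 with too few counts and the 9 variants. The 51 sparse genes sum to 1.69 to 1.95 CPM in NU7441 and 2.73 to 3.2 CPM in DMSO, while the sum without Hist1h1c overlaps.

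Genes that make and handle histone mRNAs and proteins were mostly lower. Of 26 tested genes of histone mRNA synthesis and processing, 15 fell (57.7%) and 2 rose (7.69%), with a median log2 fold change of -0.17. Over all tested genes, 16.6% were lower and 14.1% higher. Slbp, for the stem-loop binding protein, had 45.4, 44.4 and 44.4 CPM in NU7441, against 64.9, 65.9 and 61 CPM in DMSO (log2 fold change -0.51 ± 0.04, edgeR adjusted p = 9.1e-08). Cyclin E with CDK2 activates histone transcription through NPAT, and Ccne2 (-1.08 ± 0.10), Ccne1 (-0.81 ± 0.08) and Cdk2 (-0.59 ± 0.04) fell as well, with Npat at -0.17 ± 0.04 (edgeR adjusted p = 0.0045). The 2 that rose were Zcchc6 and Pou2f1, at 0.13 ± 0.04 each; Pou2f1 encodes OCT1. That number was 1 without NU7441 replicate 2, NU7441 replicate 3 or DMSO replicate 1, and 0 without DMSO replicate 2.

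Of 28 tested histone chaperones and H2A.Z exchange genes, 17 fell (60.7%) and 1 rose, Ubn2 (0.15 ± 0.04), with a median log2 fold change of -0.17. The shares over all tested genes were 16.6% lower and 14.1% higher. Those with the lowest adjusted p were Chaf1a (-0.94 ± 0.04) and Chaf1b (-0.95 ± 0.06), subunits of the assembly factor CAF-1, Nasp (-0.69 ± 0.04), a store of H3 and H4, and Asf1b (-1.37 ± 0.09), which hands H3 and H4 to CAF-1. Anp32e, which removes H2A.Z from chromatin, fell by 0.51 on the log2 scale. Genes linked to the replication-independent H3 pathway went in both directions or did not pass. Hira (-0.12 ± 0.04, edgeR adjusted p = 0.027) and Asf1a (-0.23 ± 0.06, edgeR adjusted p = 0.01) fell, and Ubn2 rose (edgeR adjusted p = 0.0054). Ubn1 (0.03 ± 0.03), Cabin1 (-0.01 ± 0.04), Daxx (0.01 ± 0.06, edgeR adjusted p = 0.91) and Atrx (0.04 ± 0.03, edgeR adjusted p = 0.35) did not pass.

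**Figure D5:**
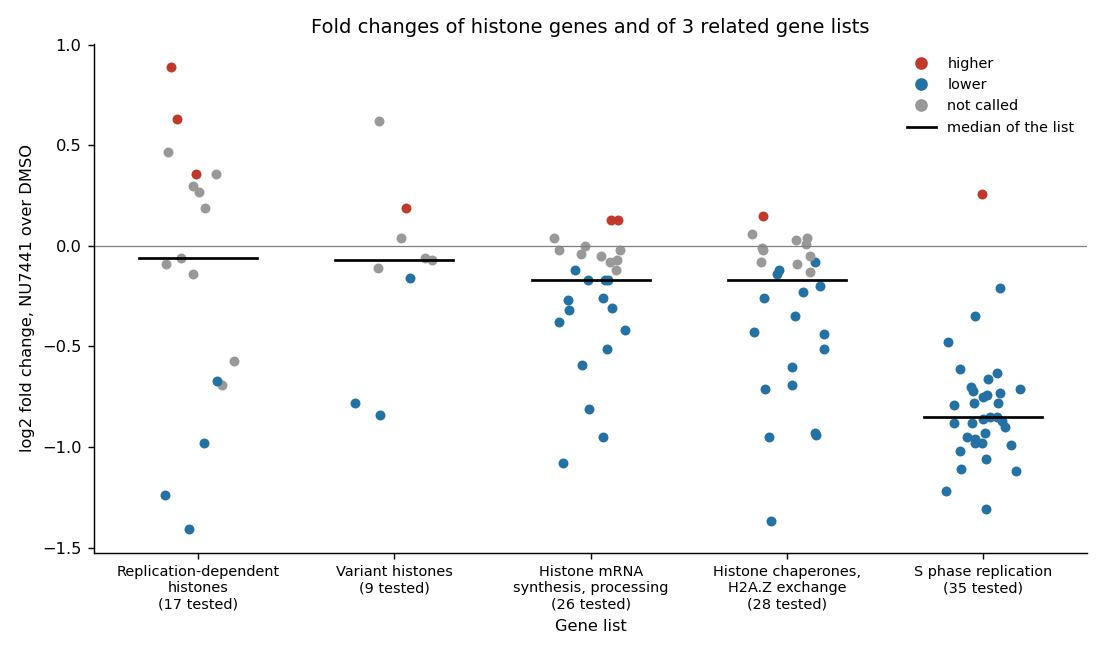
Log2 fold changes of NU7441 over DMSO, one point per tested gene, for replication-dependent and variant histones and 3 related lists, with the median of each list as a line. The medians are -0.06 and -0.07 for the histone groups, -0.17 for both histone-handling lists and -0.85 for S phase replication genes.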

How the data were processed

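RNA was measured in 3 NU7441 and 3 DMSO samples. The authors deposited counts, RPKM values and gene lengths per gene, per the file headers. The submitters' processing notes name TopHat2 version 2.0.6, HTSeq, bcl2fastq and mm10 without settings; read length, strand use and treatment of multi-mapped reads are not given in the sources used here. Deposited counts were filtered with filterByExpr. It asked for the CPM that 10 counts make at the median library size, in at least 3 samples (the group size), and for 15 counts in total. TMM set the scaling, and the test was that of edgeR 4.0.16 in R 4.3.3 (quasi-likelihood, group only, two-sided, Benjamini-Hochberg over 13784 genes, threshold 0.05). The SE is the log2 fold change divided by the square root of F. CPM uses scaled library sizes. Samples of one group differed by more than sampling noise (chi-square per degree of freedom 3.56 to 8.33). GENCODE M21 and RefSeq GRCm38.p6 gave annotation and sequences; 61 of 68 replication-dependent genes and 8 of 9 variants matched a promoter. Stem-loop, AATAAA and shared 50-base stretches were searched in GENCODE transcripts. Every tested member could be named, with the 4 called genes of lowest adjusted p per direction of each related list; a few more were named for their function after their values were seen. Members and lists were chosen with earlier results of these data known. The procedure was tested on simulated data. Sample columns left unmapped numbered 0.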

Additional observations from a re-analysis of the deposited data

How the results depend on the processing

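Scaling (RLE, upper quartile, library size only), DESeq2, no low-count filter, counts divided by 2, robust dispersion, the replicate block and each library left out left the direction of all 11 called members as it was. The calls of H2afz, H2afx, H1f0, Hist1h1c, Hist1h1e, Hist1h2bc and Hist3h2a held under every one of them. With a mean of at least 100 counts required, 3 members and 0 replication-dependent genes were called lower, because that filter removes the sparse genes. With each library left out, the members lower numbered 4 to 10, the replication-dependent genes lower 1 to 5 and the variants lower 2 to 5. The histone mRNA genes higher numbered 0 to 2, and 1 with library size only or DESeq2. The S phase genes higher numbered 0 with robust dispersion. Leaving out members that overlap another row gave a replication-dependent sum of 38 CPM in NU7441 and 31.6 CPM in DMSO, against 39.8 CPM in NU7441 and 34.4 CPM in DMSO with all members. Same-numbered samples had correlations of 0.134, 0.088 and 0.047 in their deviations, so the numbers were not taken to pair them, although all 6 samples correlated best with their own number. With the replicate number as a block, 5120 genes passed in place of 4231, and H2afv was called lower (edgeR adjusted p = 0.0278). Of the 68 replication-dependent genes 51 had too few counts to be tested; the cause was not tested.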
